A study of Mus musculus with 2 samples.

Results

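The complement genes described here were 9 of the 37451 genes listed in the expression table, taken by their symbols: *C1qa*, *C1qb*, *C1qc*, *C3*, *Cfb*, *Cfp*, *Serping1*, *C3ar1* and *C5ar1*. Each symbol matched 1 row. RNA-Seq was performed on bone marrow-derived macrophages (BMDMs), that is, macrophages grown from bone marrow in medium with CSF-1, as the expression control for the mapping of RNA bound by tristetraprolin (TTP, encoded by *Zfp36*), a protein that binds AU-rich elements and promotes mRNA decay. One genotype was C57BL/6 wild type (WT) and the other C57BL/6 TTP fl/fl LysMCre (ΔM), in which Cre, driven from the lysozyme M locus, deletes *Zfp36* in myeloid cells. Mice were littermates of 7 to 9 weeks. BMDMs of both genotypes were kept in 100 µM 4-thiouridine (4sU) for 16 h and then stimulated with 10 ng/ml LPS for 6 h, as the treatment protocol states. The sample titles end in LPS7, which the labels do not explain. No unstimulated or unlabeled library was analysed here. There was 1 library per genotype in the data analysed here, so differences between WT and ΔM have no replicate check in them and no test was possible. The study also measured expression in WT and ΔM BMDMs with biological replicates, in other libraries that were not analysed here.

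Complement is a cascade of plasma proteins that tags microbes and dying cells, recruits phagocytes and can perforate membranes. It is started by C1q on antibody or other surfaces, by lectins on sugars, or by the alternative pathway, and all routes converge on cleavage of C3. Much of plasma complement is made by the liver, whereas C1q and properdin come mainly from myeloid cells, and macrophages make several further components locally.

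Expression was given as FPKM (fragments per exon kilobase, scaled to the mapped fragments of the library), which allows levels of genes of different length to be set side by side. From the steps between low FPKMs, depth was estimated at about 36640000 fragments in WT and 32870000 in ΔM. The intervals given below are 95% intervals for Poisson counts at these depths and cover counting error only. *Zfp36* itself was at 65.3 FPKM in WT against 16.7 FPKM in ΔM, with a ratio of 0.256. Of the macrophage markers looked for, 7 were listed and all exceeded 1 FPKM in both libraries, among them *Cd68* (388 and 390 FPKM) and *Emr1* (380 and 357 FPKM). Their summed FPKM was 3778 in WT and 2664 in ΔM. The largest part of both sums was *Lyz2*, the locus that carries Cre, at 2481 FPKM in WT against 1356 FPKM in ΔM. Log2 ratios of the 7 markers ran from -0.87 for *Lyz2* to 0.51 for *Mertk*, with a median of 0.01. The part of these marker differences in the results below was not tested. Markers of neutrophils, lymphocytes, dendritic cells, fibroblasts, erythroid and mast cells (30 genes) summed to 5.52 FPKM in WT against 5.53 FPKM in ΔM. Of these, 10 were listed at 0 in both libraries and *Mmp8* alone was above 1 FPKM (3.94 and 3.74 FPKM). In bulk RNA, fewer cells of a type and less RNA per cell cannot be told apart.

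TTP recognizes the sequence TATTTAT and, more loosely, the ATTTA that every TATTTAT contains. In the longest annotated 3′ UTRs of these 9 genes, TATTTAT was found in 2 (*C3ar1* and *C5ar1*) and ATTTA in 3 (both receptors and *C1qc*). Among all 19899 coding genes with an annotated 3′ UTR, 23.9% held TATTTAT and 61.4% held ATTTA on the sense strand. Both shares depend on length. The median of the longest 3′ UTR was 239 nt for the complement genes and 891 nt for all coding genes. Only the receptors had 3′ UTRs over 1000 nt (2685 nt for *C3ar1*, 1295 nt for *C5ar1*), a class in which 40.3% of all coding genes held TATTTAT, against 9.84% of genes with shorter 3′ UTRs. The 3′ UTR of *C3* measured 39 nt, those of *Cfp*, *C1qb*, *C1qa* and *C1qc* between 140 and 239 nt, that of *Cfb* 410 nt and that of *Serping1* 522 nt. The matches are shown because they mark which of the genes carry the letters TTP is known to bind. Each sequence is the sense strand from NCBIM37 (mm9), with the AU-rich motif in capitals.
*C3ar1*: tgatacatTATTTATtcagttgt
*C5ar1*: aaagcacgTATTTATTTATtttgtggg
*C1qc*: ctgtggccATTTAtcaatacc

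The *C3ar1* window lay at chr6:122797325-122797347 on the minus strand, in the 3′ UTR part of exon 2 of 2, and its gene held 4 copies of ATTTA in all. The *C5ar1* window lay at chr7:16832550-16832576 on the minus strand, in exon 3 of 3, and held 2 overlapping copies of TATTTAT. In the *C1qc* window, at chr4:136445778-136445798 on the minus strand in exon 3 of 3, ATTTA stood on its own and not within TATTTAT. Motif matches are letters in the annotated UTR and do not show binding. The study mapped sites bound by TTP in BMDMs after 6 h of LPS, and these are not reported here. For *C5ar1*, the study also listed sites of HuR, a protein that binds U-rich RNA and is known for stabilizing transcripts with AU-rich elements. The 2 longest of the listed sites are shown because they lie in the same 3′ UTR, with their T runs in capitals.
*C5ar1* at chr7:16832824-16832850: ctatgtttgaTTTTTTTTTTTTTTgag
*C5ar1* at chr7:16833130-16833146: gcTTTTTTTTTTTTTct

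Between the AU-rich window and the nearer of the sites shown lay 247 nt, and the distance to any shorter listed site was not measured. Promoters from RefSeq (GRCm38.p6, 250 bases before to 50 after the start) were matched for 6 of the 9 genes: *C1qb*, *C1qc*, *C3*, *C3ar1*, *C5ar1* and *Cfp*. On either strand, the interferon-stimulated response element (ISRE) was found in 0 of 6, against 3.44% of 32851 promoters. The GAS element TTCNNNGAA was also found in 0 of 6, against 8.30% of all promoters. The AP-1 element TGANTCA was found in *C3ar1* (7.81% of all promoters) and an NF-kappaB element in *C1qc* (8.46% of all promoters). Both are shown with the element in capitals. None of these letters overlapped another motif searched.
*C3ar1* promoter: ttaagaggTGACTCAtggaaagg
*C1qc* promoter: tgggggagGGGGCTCTCCctgctctg

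The first capital stood 22 bases before the start in *C3ar1* (position -22) and 41 bases before it in *C1qc* (position -41). These are matches of letters only.

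The genes of the C1q molecule were the complement genes with the highest ratios of ΔM to WT. C1q is built from A, B and C chains in equal numbers, encoded by *C1qa*, *C1qb* and *C1qc*, and recognizes bound antibody and dying cells. *C1qa* was at 52.1 FPKM in WT (interval 49.6 to 54.8) against 99.5 FPKM in ΔM (95.8 to 103), with a ratio of 1.91 (1.79 to 2.03). *C1qb* was at 171 FPKM in WT against 257 FPKM in ΔM, with a ratio of 1.5005 (1.45 to 1.55). *C1qc* was at 116 FPKM in WT against 168 FPKM in ΔM, with a ratio of 1.45 (1.39 to 1.51). All 3 chains were thus higher in the ΔM library, *C1qa* by the most. On the scale of log2(FPKM + 1), used below for ratios across genes, the differences were 0.92, 0.58 and 0.53. Among the 8078 protein-coding genes averaging 1 FPKM or more, 1.47% had a higher ratio than *C1qa*, 4.91% than *C1qb* and 5.93% than *C1qc*.

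The chains did not stand in the same proportions in both libraries. With 1 library per genotype, the spread of such proportions between replicates is unknown. Within a library, a ratio of 2 genes does not depend on the scaling between libraries. *C1qa* amounted to 0.304 of the *C1qb* level in WT and 0.387 in ΔM, which differed by a factor of 1.27 (1.19 to 1.36). *C1qc* amounted to 0.675 of *C1qb* in WT and 0.653 in ΔM, a factor of 0.967 whose counting interval (0.918 to 1.02) included no change. Thus *C1qb* and *C1qc* stood in nearly the same proportion in both libraries, whereas *C1qa* was closer to them in ΔM. In both libraries *C1qa* had the lowest FPKM of the 3 and *C1qb* the highest. The 3 FPKMs summed to 339 in WT and 524 in ΔM, with a ratio of 1.55, while the other 6 genes summed to 391 and 427, a ratio of 1.09. C1q chains therefore made up 46.4% of the summed FPKM of the 9 genes in WT and 55.1% in ΔM.

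**Figure D1:**
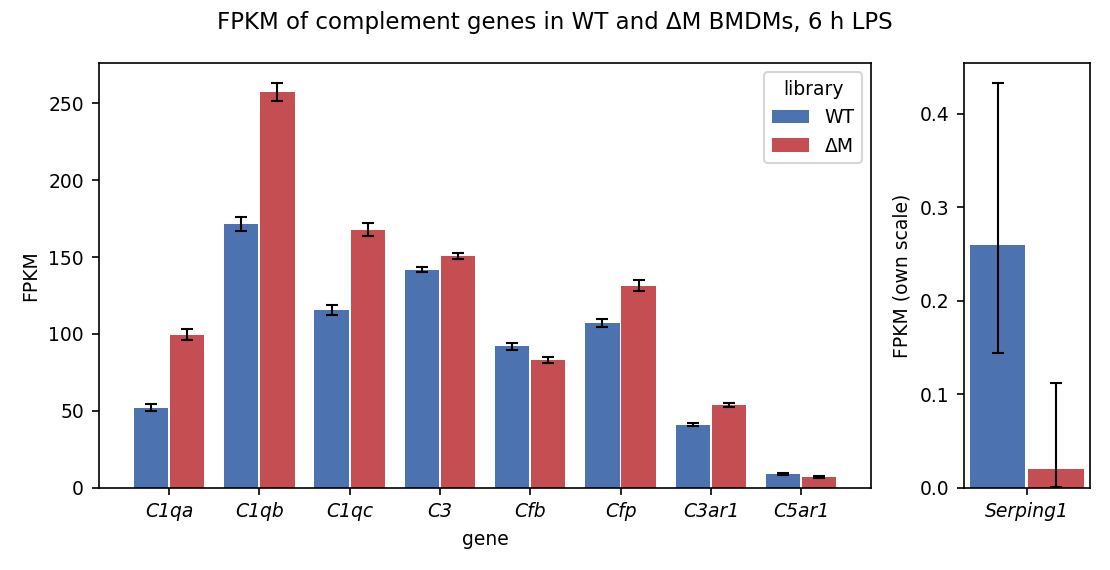
Bars give the FPKM of each complement gene in the WT and ΔM library (1 library each) with 95% Poisson intervals that cover counting error only, and *Serping1* has its own axis. The C1q chains show the widest gaps between bars, with *C1qb* at 171 in WT and 257 in ΔM, and *C5ar1* is below 10 FPKM in both libraries.

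The C1q genes lie side by side on the minus strand of chromosome 4 (mm9): *C1qb* at 136436044 to 136442102, *C1qc* at 136445719 to 136448980 and *C1qa* at 136451832 to 136454718. The cluster spans 18675 nt, with gaps of 3616 and 2851 nt. Within 500 kb of *C1qc* there were 10 other coding genes, of which 7 had a mean below 1 FPKM. The remaining 3 were *Kdm1a* (16.8 FPKM in WT, 17.0 FPKM in ΔM), *Cdc42* (44.2 and 46.9 FPKM) and *Luzp1* (3.23 and 2.62 FPKM). Their log2 ratios of 0.02, 0.08 and -0.22 were all below those of the C1q genes.

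**Figure D2:**
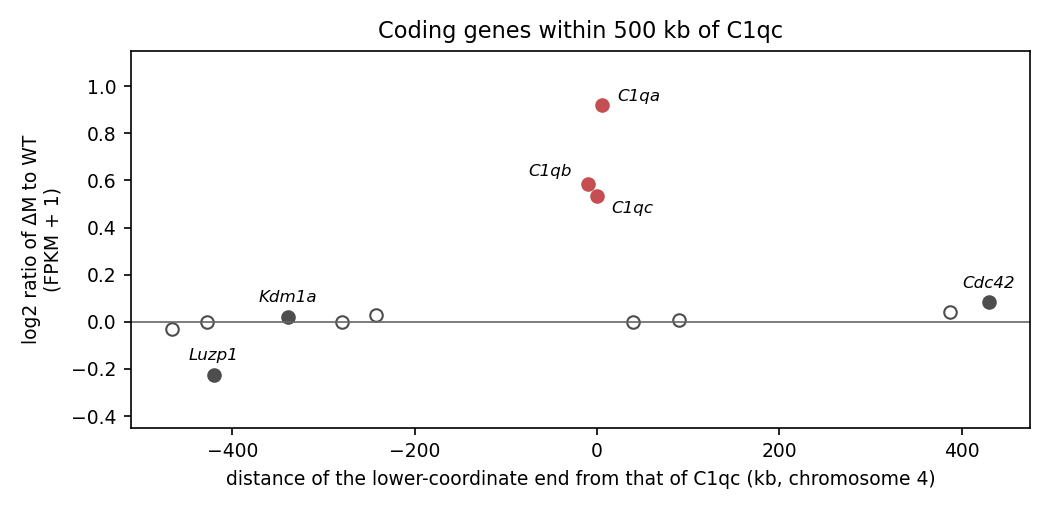
Each point is a coding gene within 500 kb of *C1qc*, with its distance in kb on the x axis and its log2 ratio of ΔM to WT (FPKM + 1) on the y axis. Red marks the C1q genes (0.53 to 0.92), grey other genes averaging 1 FPKM or more (-0.22 to 0.08) and open circles genes below that.

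C3 is the central component on which all complement routes converge, factor B (*Cfb*) supplies the protease of the alternative C3 convertase, and properdin (*Cfp*) stabilizes that convertase. These genes differed less between the libraries than the C1q genes. *C3* was at 142 FPKM in WT against 151 FPKM in ΔM, with a ratio of 1.06 (1.05 to 1.08), with the narrowest interval of the 9 genes. *Cfb* was at 91.9 FPKM in WT against 83.2 FPKM in ΔM, with a ratio of 0.905 (0.875 to 0.937). *Cfp* was at 107 FPKM in WT against 131 FPKM in ΔM, with a ratio of 1.23 (1.18 to 1.27). *Cfp* was thus higher and *Cfb* lower in ΔM, and *C3* was close to equal. Of protein-coding genes, 16.2% had a higher ratio than *Cfp* and 36.2% than *C3*, and 30.6% had a lower ratio than *Cfb*. Relative to *C3*, the *Cfb* level was 0.648 in WT and 0.551 in ΔM, and the *Cfp* level 0.756 in WT and 0.872 in ΔM.

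The values of *Cfb* are uncertain, because other entries of the table overlap its locus (chr17:34993319-34999463, minus strand). Of these, CT025759.1 was at 43.0 FPKM in WT against 36.0 FPKM in ΔM, with a ratio of 0.839, and how fragments were divided between it and *Cfb* is not given in the sources used here. *C2*, whose protein is the classical-pathway counterpart of factor B, and *Gm20547* also overlap, and neither exceeded 0.44 FPKM. *C3* lies at chr17:57343397-57367559 and *Cfp* at chrX:20502580-20508681, both on the minus strand and with no overlapping entry.

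C1 inhibitor (*Serping1*) blocks the proteases that C1q activates. Its gene, at chr2:84605544-84615601 on the minus strand, was close to silent, with 0.26 FPKM in WT against 0.02 FPKM in ΔM, or about 14.5 and 0.996 fragments. The ratio of 0.0769 had a counting interval from 0.00180 to 0.504, so the ΔM library was lower, by an amount that counting error leaves wide. With a mean under 1 FPKM, *Serping1* did not pass the filter and is left out of the counts and medians below, which cover 8 of the 9 genes.

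The receptors went in opposite directions. *C3ar1* encodes the receptor for the C3 fragment C3a, and *C5ar1* that for C5a, a strong attractant of phagocytes. *C3ar1* was at 41.0 FPKM in WT against 53.9 FPKM in ΔM, with a ratio of 1.31 (1.27 to 1.36). *C5ar1* was at 8.90 FPKM in WT against 7.25 FPKM in ΔM, with a ratio of 0.815 (0.729 to 0.910), from about 754 and 550 fragments. Both genes carry TATTTAT, as shown above, and *C3ar1* was the higher and *C5ar1* the lower of the pair in ΔM relative to WT. *C5ar1* amounted to 0.217 of *C3ar1* in WT and 0.134 in ΔM, a factor of 0.620 (0.552 to 0.695). Among protein-coding genes, 10.7% had a higher ratio than *C3ar1* and 18.9% a lower ratio than *C5ar1*. *C3ar1* lies at chr6:122797156-122806179 and *C5ar1* at chr7:16832092-16844889, both on the minus strand. *Gpr77*, the gene of the second C5a receptor, lies 2588 nt from *C5ar1* and was at 0.06 FPKM in WT against 0.02 FPKM in ΔM.

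Set against all genes, 0 of the 8 complement genes reached 2-fold in either direction on the log2(FPKM + 1) scale, where 1.19% of 8078 protein-coding genes were at least 2-fold higher and 1.32% at least 2-fold lower in ΔM. At 1.5-fold, 1 of 8 was higher (*C1qa*) and 0 were lower, with 4.82% and 5.36% of all protein-coding genes. *C1qb* fell just short of this limit, with a log2 ratio of 0.58 on that scale and a plain FPKM ratio of 1.5005. By any amount, 6 of 8 were higher and 2 lower in ΔM, against 49.5% and 50.2% of protein-coding genes. The median log2 ratio of the 8 was 0.34, from -0.26 (*C5ar1*) to 0.92 (*C1qa*), and that of all protein-coding genes was -0.0015. The counting intervals of WT and ΔM did not overlap for any of the 9 genes. They also failed to overlap for 43.7% of the 7988 protein-coding genes for which they were computed (20.6% higher and 23.1% lower in ΔM). Separation beyond counting error was thus common between these libraries. That share covers genes averaging 1 FPKM or more, so *Serping1* is not among them. Relative intervals narrow as fragments increase, and the share was not computed for genes matched by level.

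**Figure D3:**
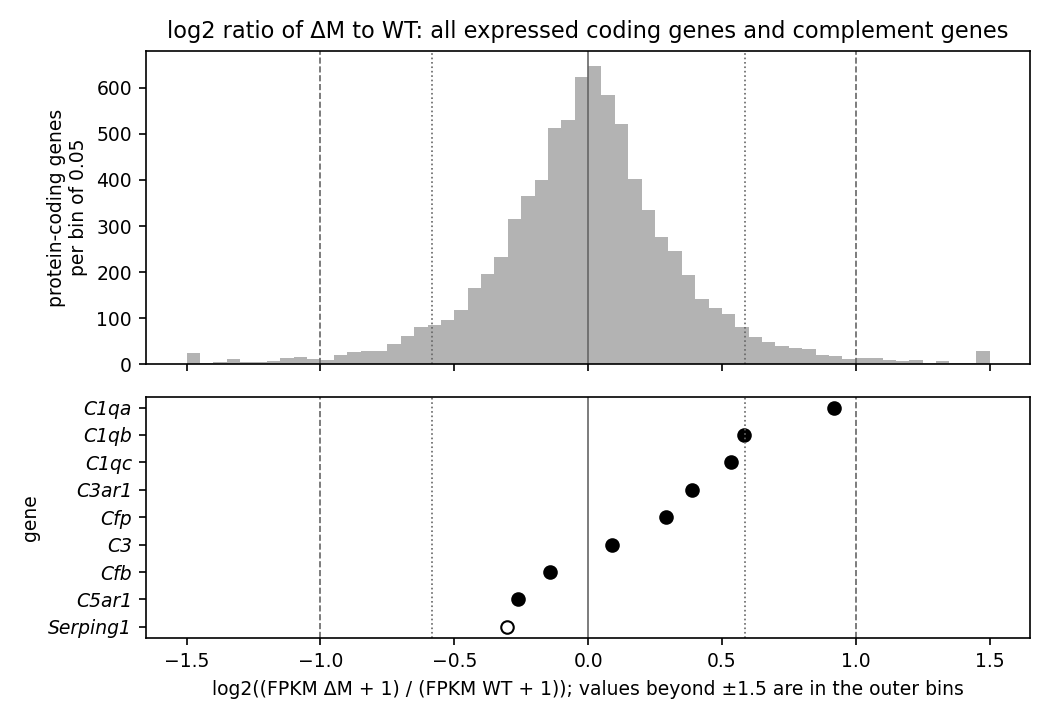
The upper panel counts the 8078 protein-coding genes by log2 ratio of ΔM to WT, and the lower panel gives each complement gene, with *Serping1* open because its mean is under 1 FPKM. Dotted lines mark 1.5-fold and dashed lines 2-fold; *C1qa* at 0.92 lies beyond the dotted line and 0 genes lie beyond the dashed lines.

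By level, the complement genes were abundant transcripts apart from *C5ar1* and *Serping1*. The order in WT was *C1qb*, *C3*, *C1qc*, *Cfp*, *Cfb*, *C1qa*, *C3ar1*, *C5ar1* and *Serping1*. In ΔM, *C1qc* stood above *C3* and *C1qa* above *Cfb*, and the order was otherwise the same. No neighbours in either order had overlapping counting intervals. Among 22259 protein-coding genes, *C1qb* ranked 200 in WT and 125 in ΔM, and *C3* ranked 259 and 235. *C1qa* ranked 752 in WT and 383 in ΔM, the widest shift among the genes above 10 FPKM. *C5ar1* ranked 3299 in WT and 3741 in ΔM.

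Most of the rest of the pathway averaged under 1 FPKM in these macrophages, as did most protein-coding genes. Of 45 further complement genes, 11 averaged 1 FPKM or more and 8 were listed at 0 in both libraries. Over all 22259 protein-coding genes, these counts were 8078 and 4910. Of the 11, 6 were higher and 5 lower in ΔM, and their median log2 ratio was 0.14, from -0.36 to 0.58. On the log2(FPKM + 1) scale, 0 of the 11 were past 1.5-fold or 2-fold. Of protein-coding genes averaging 1 FPKM or more, 4.82% were past 1.5-fold higher and 5.36% lower. None of the 6 genes of the membrane attack complex (*C6*, *C7*, *C8a*, *C8b*, *C8g* and *C9*) reached a mean of 1 FPKM, and neither did *Hc*, which encodes C5, or *Cfd*, which encodes factor D.

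The receptors of the wider list included the most abundant genes. *Itgam* and *Itgb2*, which encode the chains of complement receptor CR3, were at 223 and 143 FPKM in WT and at 199.9 and 166 FPKM in ΔM, so the alpha chain was lower and the beta chain higher. *Itgax*, the alpha chain of CR4, was at 3.96 FPKM in WT against 3.47 FPKM in ΔM. *Cd93*, a surface protein first described as a C1q receptor, was at 5.20 and 5.81 FPKM, and *C1qbp*, a C1q-binding protein of mitochondria, at 1.75 and 1.5 FPKM. None of these differences reached the size seen for *C1qa*.

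Among classical and lectin genes, *C1ra* was at 4.17 FPKM in WT against 5.11 FPKM in ΔM, and *C1rb* at 3.16 and 4.21 FPKM. They encode C1r proteases and overlap on the same strand, so fragments may be split between them and both values are uncertain. *Fcna*, which encodes the lectin ficolin A, was at 2.83 FPKM in WT against 4.51 FPKM in ΔM, with a ratio of 1.59 (1.25 to 2.04). *Colec12*, a collectin of the cell surface, was at 1.55 FPKM in WT against 0.99 FPKM in ΔM. Both lectins are low genes, with about 164 fragments or fewer for *Fcna*.

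Of the regulators that protect host cells, *Cr1l* (Crry), which limits C3 convertases, was at 4.47 FPKM in WT against 4.09 FPKM in ΔM. *Cd59a*, which blocks the membrane attack complex, was at 0.73 FPKM in WT against 1.58 FPKM in ΔM, with a ratio of 2.16 (1.47 to 3.23) and a log2 ratio of 0.58 after adding 1 FPKM. Its paralog *Cd59b*, with a mean just under 1 FPKM, was at 1.49 FPKM in WT against 0.38 FPKM in ΔM, so the values of the paralogs went in opposite directions and are uncertain.

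**Figure D4:**
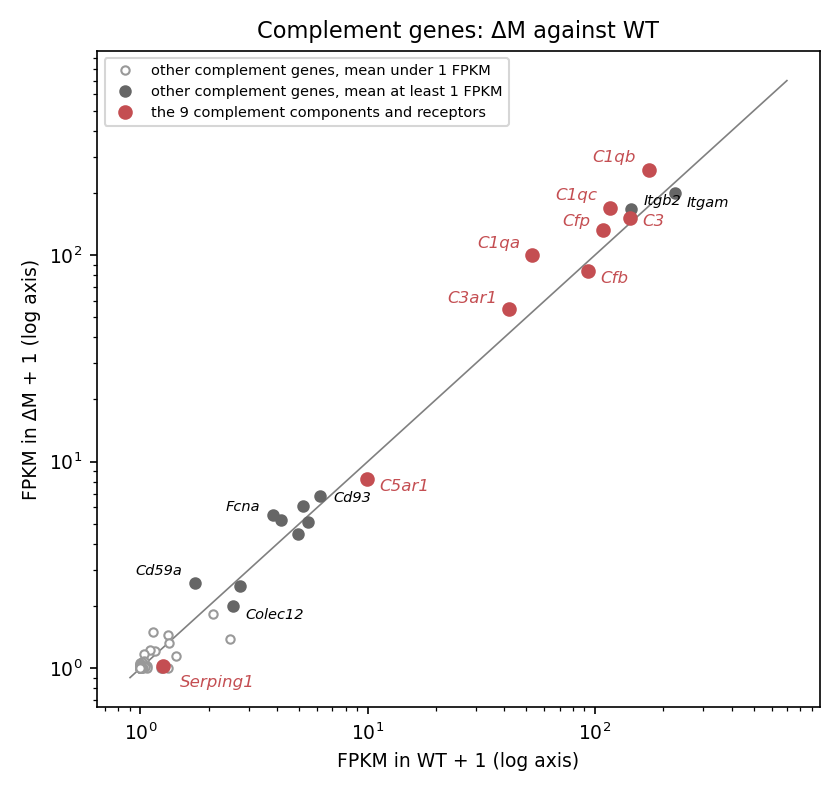
Each point is a complement gene with FPKM + 1 in WT on the x axis and in ΔM on the y axis, both on log scales, and the line marks equal values. The C1q genes, *C3ar1* and *Cfp* lie above the line, *C5ar1*, *Cfb* and *Itgam* below it, and most of the 45 other genes lie near the origin with means under 1 FPKM (open circles).

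The nearest expressed coding neighbours of the complement genes (14 genes averaging 1 FPKM or more) held 0 genes past 1.5-fold on the log2(FPKM + 1) scale. Among all protein-coding genes at that level, 4.82% were past it higher and 5.36% lower in ΔM. In plain FPKM, the ratio was 1.65 for *Dhx34*, 1.57 for *Foxj2* and 0.666 for *Ccdc9*. Beside *C5ar1*, *Ccdc9* was at 33.8 FPKM in WT against 22.5 FPKM in ΔM, and *Dhx34* at 1.39 and 2.29 FPKM. Beside *C3ar1*, *Necap1* was at 12.7 and 14.2 FPKM and *Foxj2* at 1.16 and 1.82 FPKM. Beside *C3*, *Gpr108* was at 23.9 FPKM in WT against 20.5 FPKM in ΔM, and *Tnfsf9* at 11.45 and 9.43 FPKM. The neighbours of *Cfb*, *Cfp* and *Serping1* had log2 ratios between -0.17 (*Clp1*) and 0.32 (*Elk1*), with *Rdbp* at 0.13, *Ehmt2* at 0.06, *Timp1* at -0.13 and *Ube2l6* at 0.14.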

How the data were processed

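RNA-Seq libraries of 4sU-labeled, LPS-stimulated WT and ΔM BMDMs were analysed (1 each). Per the labels and the study's methods, the authors depleted rRNA, fragmented RNA, selected cDNA by size, mapped reads to mm9 and quantified Ensembl genes with Cufflinks. The deposited unit is FPKM per gene, with 2 decimals, to which count models were not applied. With 1 library per genotype no p-values were calculated. The complement genes and the lists of pathway genes and markers were chosen by role, with earlier results of these data known.

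Log2 ratios were calculated after adding 1 FPKM, which understates changes of low genes, and compared with protein-coding genes averaging 1 FPKM or more. Depth was recovered from FPKM steps of short single-transcript genes: 81.8% of values in WT and 81.1% in ΔM lay within 0.1 fragment of a whole number, where 20% would by chance. The search was tested on simulated data. Counting intervals (95%, Poisson, scipy 1.17.1) used the median coding transcript. Intervals on the factors between within-library ratios used a normal approximation on the log scale. Positions, transcripts and UTRs came from GENCODE M1 on NCBIM37, which held 37039 of the 37451 genes. The genes named are all 9 complement genes, pathway genes averaging 1 FPKM or more, expressed neighbours and *Zfp36*, beside low genes named as members of a listed group (membrane attack complex, *Hc*, *Cfd*); *Gpr77*, *Cd59b*, *Luzp1*, CT025759.1, *C2*, *Gm20547* and the markers given as examples were named after their values were seen.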

Additional observations from a re-analysis of the deposited data

How the results depend on the processing

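A pseudocount of 0.1 FPKM, no pseudocount, centring on the median of protein-coding genes or rescaling to an equal FPKM sum left the direction of all 9 complement genes as given, and moved the log2 ratio of 8 of them by less than their counting intervals. *Serping1* went from -0.30 to -1.585 with a pseudocount of 0.1 FPKM and to -3.70 with none, and its size is not fixed by these data. The number of complement genes past the fold went from 0 to 1 higher at 1.5-fold. In 2 alternatives chosen after seeing the data, it was 2 at 1.5-fold with a pseudocount of 0.1 FPKM, where *C1qb* joined *C1qa*, and 1 was past 2-fold lower with that pseudocount and no filter on low values, namely *Serping1*. The median log2 ratio of the other complement genes went from 0.14 to 0 with no filter, since most are near 0 FPKM, and to 0.025 at a mean of at least 10 FPKM, where *Itgam* and *Itgb2* alone remain. Over all listed genes averaging 1 FPKM or more, annotated or not, 613 were at least 2-fold higher and 389 at least 2-fold lower. Of 8078 protein-coding genes at that level, these counts were 96 and 107. The total of genes behind the first counts was not computed, so the shares cannot be compared. At a mean of at least 10 FPKM, the counts were 22 and 26 of 3039 protein-coding genes (0.724% and 0.856%). Of the 68 planned comparisons, 59 stayed close to the values given. Some of these could not differ. Counting intervals were recomputed with the longest transcript, and 6 of the 9 genes had 1 coding transcript. No paired analysis was possible because each genotype has 1 library, which also allows no run without a library. Culture, library and genotype cannot be told apart.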
